A study of Mus musculus with 278 samples.

Results

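The 9 genes described here encode chains of collagens I, III, V and VI, namely Col1a1, Col1a2, Col3a1, Col5a1, Col5a2, Col5a3, Col6a1, Col6a2 and Col6a3. They were taken by symbol, and all 9 were among the 14145 genes of the deposited table. Types I, III and V are fibrillar collagens. Type VI is not one of these: it assembles into beaded microfilaments beside the fibrils, so the label fibrillar collagens covers 6 of the 9 genes strictly.

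Wild-type and K14ΔNβ-cateninER keratinocytes, both from the dorsal skin of adult mice, had been grown together at 9 to 1. In the transgene the keratin 14 promoter, which is active in basal keratinocytes, drives a β-catenin that resists degradation and is joined to the hormone-binding part of the oestrogen receptor, so that 4-hydroxy-tamoxifen (4OHT) switches it on. All cultures held both genotypes. Treated cultures received 200 nM 4OHT for 24 h and untreated cultures received the solvent DMSO for the same time. Single cells were captured on a microfluidic chip and their values are TPM, transcript levels corrected for gene length and brought to an equal sum per cell. The library names fall into the series AG, with 66 untreated and 64 treated cells, and GHA501A, with 71 untreated and 69 treated cells, and these 4 sets were taken as the samples because cells of one set are not replicates. What else differed between the series, and the strain of the mice, are not given in the sources used here, and transgenic cells were not told apart from wild-type cells. The study found the transgenic cells by aligning reads to the transgene and removed them from its own analysis, but the labels do not mark them, so the sets used here may hold them.

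Collagen chains carry long repeats with glycine at regular steps, and each molecule is a triple helix of such chains. Type I collagen usually joins a pair of α1 chains, from Col1a1, with a single α2 chain, from Col1a2. Type III is built from Col3a1 chains alone. Type V, from Col5a1 and Col5a2 and in some molecules Col5a3, sits inside type I fibrils and limits their diameter. Type VI in its most common form joins 1 chain each of Col6a1, Col6a2 and Col6a3. In skin these collagens are mainly products of dermal fibroblasts, whereas keratinocytes are better known for basement membrane collagens.

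All 9 genes are annotated as protein coding (GRCm38, positions from GENCODE M21). Col1a1 spans 94936224 to 94953042 on the plus strand of chromosome 11, and Col1a2 spans 4504814 to 4541544 on the plus strand of chromosome 6. Col3a1 (chromosome 1, 45311538 to 45349706, plus strand) and Col5a2 (chromosome 1, 45374321 to 45503282, minus strand) are neighbours separated by 24614 bases. Col5a1 lies on chromosome 2 from 27886425 to 28039514 on the plus strand, and Col5a3 on chromosome 9 from 20770050 to 20815067 on the minus strand. Col6a1 (chromosome 10, 76708792 to 76726168) and Col6a2 (chromosome 10, 76595762 to 76623630) are both on the minus strand and 85161 bases apart. Col6a3 lies on chromosome 1 from 90765923 to 90843971 on the minus strand. Small non-coding or unclassified gene models overlap Col1a2, Col3a1, Col5a1, Col5a2, Col5a3 and Col6a3, and whether the counting used strand is not given in the sources used here.

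Promoter sequences of RefSeq (GRCm38.p6) were found for 7 of the 9 genes, all except Col1a1 and Col5a2. The 250 bases before the start of 4 of them are shown as examples that differ in composition. They ran from 35.2% G and C in Col3a1 to 76.4% in Col5a1, against a median of 52% over 27025 promoter windows of that length. Capitals mark matches on either strand to a TATA box, spelled TATAAA. They also mark a CCAAT box, spelled by its name, and a GC box, spelled GGGCGG. An AP-1 site, spelled TGANTCA, was searched as well. Windows read 5′ to 3′ on the strand of the gene.
Col3a1, chr1:45311288-45311537, plus strand: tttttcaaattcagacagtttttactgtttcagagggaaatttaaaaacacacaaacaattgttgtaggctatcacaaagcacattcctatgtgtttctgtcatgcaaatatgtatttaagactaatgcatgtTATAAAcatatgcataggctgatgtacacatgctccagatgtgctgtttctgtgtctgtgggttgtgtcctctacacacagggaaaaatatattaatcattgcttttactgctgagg
Col5a1, chr2:27886175-27886424, plus strand: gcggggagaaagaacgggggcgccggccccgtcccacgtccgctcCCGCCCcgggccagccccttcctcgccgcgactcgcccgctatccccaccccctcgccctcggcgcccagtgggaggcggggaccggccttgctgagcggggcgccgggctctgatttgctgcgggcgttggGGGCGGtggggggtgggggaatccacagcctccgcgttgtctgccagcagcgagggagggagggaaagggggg
Col5a3, chr9:20815068-20815317, minus strand: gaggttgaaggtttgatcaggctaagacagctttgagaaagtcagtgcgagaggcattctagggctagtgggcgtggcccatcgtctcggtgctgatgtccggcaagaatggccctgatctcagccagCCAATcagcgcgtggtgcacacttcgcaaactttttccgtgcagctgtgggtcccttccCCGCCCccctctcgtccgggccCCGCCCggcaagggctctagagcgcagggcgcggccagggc
Col6a3, chr1:90843972-90844221, minus strand: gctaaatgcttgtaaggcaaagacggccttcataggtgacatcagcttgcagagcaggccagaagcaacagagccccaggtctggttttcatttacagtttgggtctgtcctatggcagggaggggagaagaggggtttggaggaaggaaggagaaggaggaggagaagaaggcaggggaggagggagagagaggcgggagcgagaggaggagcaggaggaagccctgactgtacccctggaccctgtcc
The Col3a1 window held the letters TATAAA 117 bases before the start, and the search set no condition on position. The Col5a1 window held a GC box 205 and another 73 bases before the start. The Col5a3 window held a CCAAT box and, nearer to the start, GC boxes at 63 and 41 bases before it. The Col6a3 window held no match to any of the 4. Among the 7 chain genes with a window, 1 held a TATA box, 2 a CCAAT box, 4 a GC box and 1 an AP-1 site. Of all windows, 12.97% held a TATA box, 34.5% a CCAAT box, 32.9% a GC box and 6.87% an AP-1 site. These matches describe letters in a window and do not show that a factor was bound.

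Each cell was checked against marker lists for the labelled cell type. In AG the label keratinocyte held, although the integrin gene Itgb4 was listed at 0 in every AG cell. There 13 of 14 epithelial markers had TPM over 1 in at least 50% of the cells of both sets, and the summed TPM of the list had a median of 30424 in untreated and 28240 in treated cells. In GHA501A these medians were 32.3 in untreated cells, with a range from 0 to 52325, and 136.3 in treated cells, with a range from 2.75 to 71180. The mesenchymal list (11 of 16 listed genes were in the table) summed to medians of 1348 and 1224 TPM in GHA501A and 158.5 and 181.2 TPM in AG. Vim, which encodes the intermediate filament protein vimentin, had a median of 950 TPM in untreated GHA501A cells and 41.3 TPM in untreated AG cells. Prrx1, a transcription factor of limb and dermal mesenchyme, had medians of 44.3 and 2.06 TPM. Dcn (decorin) was detected in 23.9% of untreated GHA501A cells and in 3.03% of untreated AG cells, and Cdh11, another listed gene, went the other way, with 11.3% and 84.8%. Most GHA501A cells therefore went against the label, and the cells are called by their series throughout.

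The defining endothelial genes of the table, Kdr and Tek, were listed at 0 in every GHA501A cell and had a median of 0 in both AG sets. Some single markers of other lineages were common. Lyz2 of the immune list was over 1 TPM in 68.2% and 76.6% of AG and 85.9% and 85.5% of GHA501A cells, though Adgre1 of that list was at 0 in every GHA501A cell. Acta2 of the contractile list had 84.8% and 92.2%, and 70.4% and 53.6%. Pmel of the melanocyte list had 68.2% and 82.8%, and 36.6% and 44.9%. The number of genes with TPM over 1 had a median between 6008 and 6392 in the 4 sets. The series differed in more than these genes. Of the genes in the table, 1394 were listed at 0 in every GHA501A cell, 59 of them with a mean over 10 TPM in AG, and 35 were listed at 0 in every AG cell. The median number of genes with a value between 0 and 1 TPM was 342.5 and 553 per cell in AG and 978 and 1049 in GHA501A. A difference in how the libraries were made or quantified cannot be told apart from a difference in the cells. All 9 collagen genes were listed above 0 in cells of both series.

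The level of the chain genes by library series was compared first. Both type I genes, Col3a1, Col5a2, Col5a3 and the 3 type VI genes were higher in GHA501A than in AG, by 3.55 to 6.70 on the log2(mean TPM + 1) scale. Col5a1 was the exception and missed the threshold. Taken gene by gene, the median over AG cells was 0 TPM for each of the 9 genes in both sets. The median over GHA501A cells was 1123 TPM (untreated) or 909 TPM (treated) for Col1a1 and 520 or 720 TPM for Col6a1. Together the 9 genes took a mean of 0.00779% of TPM in untreated and 0.00418% in treated AG cells, and 0.322% and 0.378% in GHA501A cells.

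Col1a1, the α1 chain of type I collagen, ranged from 0 to 325 TPM in untreated and from 0 to 318 TPM in treated AG cells, with a median of 0 in both. In GHA501A it ranged from 5.18 to 7667 TPM with a median of 1123 in untreated cells, and from 8.57 to 17274 TPM with a median of 909 in treated cells. It was over 1 TPM in 24 of 66 and 20 of 64 AG cells and in every GHA501A cell. The set means were 14.97 and 15.9 TPM in AG and 1507 and 1936 TPM in GHA501A, so the sets of the series did not overlap.

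Col1a2, the α2 chain of the same molecule, reached at most 51.1 TPM in untreated and 31.98 TPM in treated AG cells. In GHA501A its median was 87.8 TPM (0.237 to 774) in untreated and 89.4 TPM (0.937 to 2017) in treated cells. It was detected in 14 of 66 and 5 of 64 AG cells against 65 of 71 and 68 of 69 GHA501A cells. Col3a1, the chain of type III collagen, reached 161.6 TPM in untreated AG cells and was above 0 in a single treated AG cell, at 49.5 TPM. Its GHA501A medians were 52.9 TPM (0 to 4243) in untreated and 85.7 TPM (0.269 to 1168) in treated cells. The mean of Col3a1 in untreated GHA501A cells, 234 TPM, took 25.5% of its total from 1 cell.

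Col5a1, the type V chain that nearly all type V molecules hold, was detected in 28 of 66 untreated and 21 of 64 treated AG cells, more AG cells than any other member. Its AG values ran up to 1163 TPM in untreated and 31.4 TPM in treated cells. In GHA501A the medians were 18.8 TPM (0 to 1455) and 15.4 TPM (0 to 1149). The untreated AG mean of 31.1 TPM took 56.7% of its total from 1 cell and was 13.7 TPM without it. Col5a2 had medians of 5.85 TPM (0 to 581) in untreated and 9.18 TPM (0 to 973) in treated GHA501A cells, and reached 112.2 and 119.7 TPM in AG. Col5a3, the chain of a rarer type V form, was over 1 TPM in 4 of 66 untreated AG cells and was listed at 0 in all 64 treated AG cells, which allows a share of detected cells of up to 4.69% by the limit of 3 counts and 5.66% by the 95% Wilson interval. Its GHA501A medians were 7.65 TPM (0 to 1484) and 10.4 TPM (0 to 1243).

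Col6a1 was detected in 12 of 66 and 11 of 64 AG cells, with highest values of 330 and 238 TPM. Its GHA501A medians were 520 TPM (0 to 10890) in untreated and 720 TPM (3.14 to 6419) in treated cells. Col6a2 was over 1 TPM in 4 and 3 AG cells and had GHA501A medians of 100.7 TPM (0 to 503) and 84.3 TPM (0 to 1836). Col6a3, which encodes the largest of these type VI chains, was found in a single untreated AG cell at 2.39 TPM and was listed at 0 in all treated AG cells. Its GHA501A medians were 8.85 TPM (0 to 745) and 11.3 TPM (0 to 781). The per-cell plot by set shows the AG medians at 0 for all 9 genes.

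**Figure D1:**
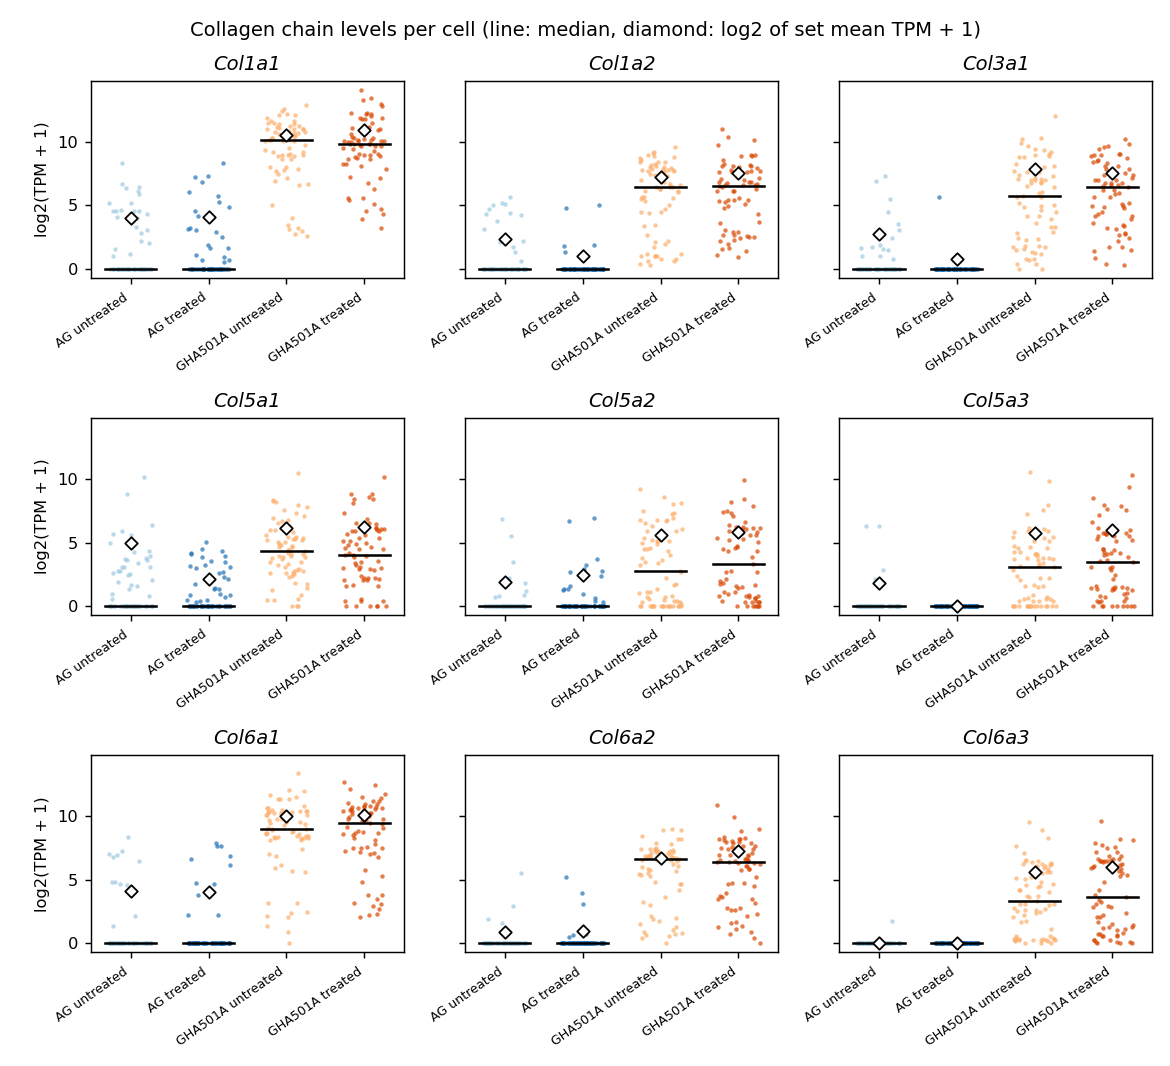
Level of each chain gene as log2(TPM + 1) in single cells of the 4 sets (66, 64, 71 and 69 cells), 1 point per cell, with the line at the median and the diamond at log2 of the set's mean TPM + 1. AG medians lie at 0 in every panel, and Col1a1 and Col6a1 are the highest genes of the GHA501A sets.

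The series difference was tested on the 4 set values per gene by limma, with treatment as a block (Benjamini-Hochberg over 12355 genes, called at an adjusted p under 0.05 and an absolute difference over 0.5). By this rule 8 of the 9 genes were called higher in GHA501A, and 18.2% of all genes tested were. The median difference was 5.77 over the 9 genes and 0.01 over all genes. Both GHA501A sets lay above both AG sets for all 9 genes, as for 36.7% of all genes tested. Genes called lower in GHA501A made up 10.8% of all genes, and no chain gene was among them.

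Col1a1 had the largest difference of the 9, 6.70 (SE 0.33, adjusted p = 0.00181, limma). Col6a2 differed by 6.06 (SE 0.34, adjusted p = 0.00181), Col6a1 by 5.95 (SE 0.33, adjusted p = 0.00181) and Col6a3 by 5.77 (SE 0.34, adjusted p = 0.00183). For Col3a1 the difference was 5.89 (SE 0.50, adjusted p = 0.00262) and for Col1a2 it was 5.74 (SE 0.51, adjusted p = 0.00281). The type V genes lay lower, at 4.98 for Col5a3 (SE 0.57, adjusted p = 0.00528) and 3.55 for Col5a2 (SE 0.33, adjusted p = 0.00323). Col5a1 differed by 2.61 (SE 0.77, adjusted p = 0.0697). Without the highest cell of each set its difference was 2.84 with an adjusted p of 0.0196 (limma), past the threshold. Since both were listed at 0 in treated AG cells, the differences of Col5a3 and Col6a3 depend on the pseudocount. With 0.1 in place of 1 they were 6.84 and 8.87, and by the mean of log2(TPM + 1) over cells 3.03 and 3.68.

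Within GHA501A the level order by the mean of both sets was Col1a1 at 10.74 ± 0.25 (SD, n = 2 sets) and Col6a1 at 10.01 ± 0.06, followed by Col3a1 at 7.70 ± 0.25, Col1a2 at 7.42 ± 0.24 and Col6a2 at 6.98 ± 0.34. Then came Col5a1 at 6.17 ± 0.07, Col5a3 at 5.88 ± 0.15, Col6a3 at 5.79 ± 0.27 and Col5a2 at 5.70 ± 0.15, all on the log2(mean TPM + 1) scale. Set values overlapped between Col3a1 and Col1a2, between Col5a3 and Col6a3, and between Col6a3 and Col5a2, so these neighbours could not be ordered. In AG the order was Col6a1 (4.06 ± 0.02), Col1a1 (4.04 ± 0.06) and Col5a1 (3.56 ± 2.04), and sets overlapped for 7 of the 8 pairs of neighbours. Col1a1 and Col6a1 made up 46.8% and 31.1% of the summed TPM of the 9 genes in untreated GHA501A cells and 51.3% and 28.2% in treated cells. In untreated AG cells Col5a1 had 39.9%, with a mean of 31.1 TPM against 15.9 TPM for Col6a1 and 14.97 TPM for Col1a1. Without the highest cell of each gene these means were closer, at 13.7 TPM for Col5a1, 11.04 TPM for Col6a1 and 10.2 TPM for Col1a1. In treated AG cells Col1a1 had 37.96%, Col6a1 37.05% and Col5a1 7.99%.

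A cell held several of the genes less often in AG than in GHA501A. At least 3 were over 1 TPM in 17 of 66 untreated and 9 of 64 treated AG cells, and in 70 of 71 and 68 of 69 GHA501A cells. Among AG cells 16 of 66 untreated and 24 of 64 treated cells had none of the 9 over 1 TPM, and the median cell had 1. Among GHA501A cells 28 of 71 untreated cells (39.4%, 95% Wilson interval 28.9% to 51.1%) and 33 of 69 treated cells (47.8%, 36.5% to 59.4%) had all 9, and the median cell had 8. No AG cell had all 9, the highest count being 8 in untreated and 5 in treated cells. Wilson intervals cover the counting of cells only.

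**Figure D2:**
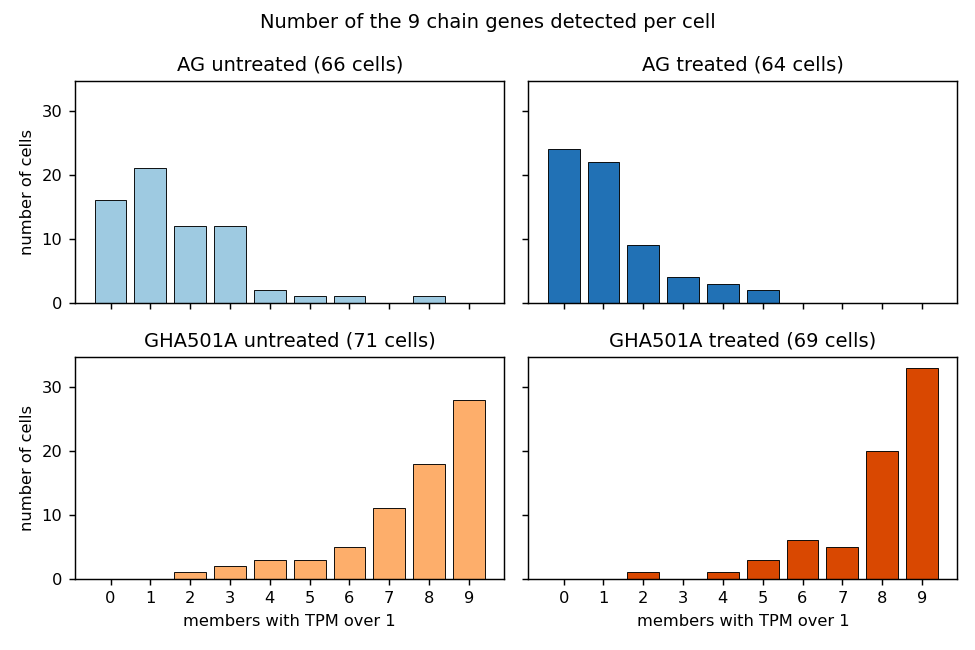
Number of cells (y axis) by how many of the 9 chain genes were over 1 TPM (x axis), for each of the 4 sets. AG cells pile up at 0 and 1 genes, and GHA501A cells at 8 and 9.

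Complete sets of chains followed the same split. Both type I genes were over 1 TPM in 8 of 66 and 4 of 64 AG cells and in 65 of 71 and 68 of 69 GHA501A cells. Among the other AG cells with a type I gene, Col1a1 alone was detected in 16 cells of each set. Col5a1 and Col5a2 were found together in 3 and 5 AG cells and in 43 and 45 GHA501A cells, and Col5a1 without Col5a2 in 21 and 14 GHA501A cells. All 3 type VI genes were found in 0 AG cells of either set, and in 52 of 71 (73.2%, 61.9% to 82.1%) and 53 of 69 (76.8%, 65.6% to 85.2%) GHA501A cells. A chain that is not detected in a single cell may be present below what the library could show, since the table holds no read counts.

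The ratio between chains was taken within single cells, for GHA501A cells with both chains over 1 TPM. Col1a1 was above Col1a2 in all 65 untreated and all 68 treated cells, with a median ratio of 10.3 and 10.2, against a pair of α1 chains for each α2 chain in the usual molecule. The middle 50% of cells spanned 2.74 to 4.63 on the log2 scale in untreated and 2.70 to 4.42 in treated cells. Col6a1 was above Col6a2 in 62 of 64 untreated and 65 of 65 treated cells, with median ratios of 8.27 and 7.38. Col6a3 was below Col6a1 in all 52 and all 53 cells with both, by a median of 4.44 and 4.30 on the log2 scale, although the common type VI molecule takes 1 of each chain. These are ratios of transcripts. The protein chains were not measured, so an excess or shortage of a chain cannot be read from them.

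These ratios rest on the gene lengths used for TPM, which are not given in the sources used here. Col1a2 has 12426 bases of exon over all its transcripts but 5348 in its longest transcript, and Col6a2 has 8326 and 4912. If the table used the first kind of length, values by the second kind would put Col1a1 over Col1a2 at a ratio of 4.92 and 4.87, and Col6a1 over Col6a2 at 5.21 and 4.65. The order of the chains within types I and VI was the same by both lengths.

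Type V chains stood nearer to each other. Col5a1 over Col5a2 had a median log2 ratio of -0.53 in 43 untreated and -0.20 in 45 treated cells, and the middle 50% of cells spanned -1.95 to 2.72 in untreated cells, and Col5a1 was the higher of the pair in 19 of 43 and 21 of 45 cells. The ratio of the set means, which take in every cell, pointed the other way, at 0.54 and 0.41. Left out of the ratio over cells were 22 untreated and 17 treated cells with only 1 of the pair over 1 TPM. In 21 and 14 of these the gene detected was Col5a1. Col5a3 over Col5a1 had medians of -0.50 and -0.14. Against type I, Col5a1 was below Col1a1 in every cell with both (64 untreated and 59 treated), by a median of 5.61 and 5.55 on the log2 scale. Col3a1 was below Col1a1 in 63 of 64 untreated and all 66 treated cells, with median log2 ratios of -3.59 and -3.17. In AG at most 11 cells of a set held both chains of any pair, and their ratios are not described.

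**Figure D3:**
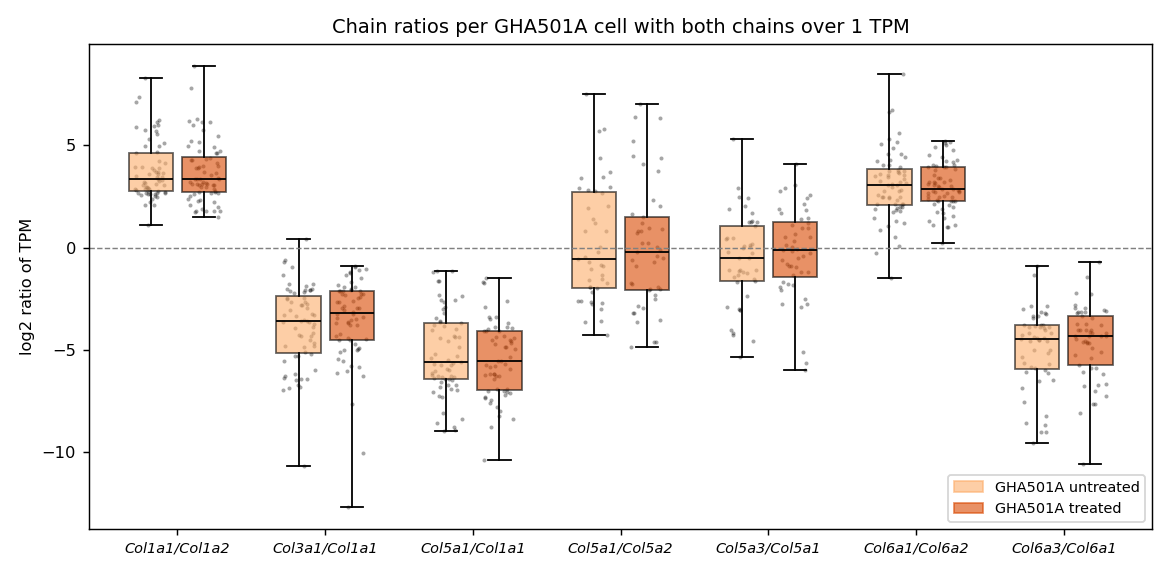
Log2 ratio of TPM (y axis) for 7 pairs of chain genes in GHA501A cells with both genes over 1 TPM, 1 point per cell. Boxes hold the middle 50% of cells with a line at the median, and whiskers reach the lowest and highest cell. Medians of Col1a1/Col1a2 and Col6a1/Col6a2 lie near 3, while both ratios among type V genes straddle 0.

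Levels of the chains varied together from cell to cell in GHA501A. Over the 36 pairs the median Spearman's rho was 0.52 in 71 untreated cells (0.33 to 0.89) and 0.61 in 69 treated cells (0.30 to 0.89). Correlations over cells are descriptions: the cells of a set share a library preparation, and the values within a cell share its total. The highest pair was Col1a1 and Col1a2 in untreated cells (0.89, and 0.84 in treated cells) and Col6a1 and Col6a2 in treated cells (0.89, and 0.73 in untreated cells). Col1a1 and Col6a3, from different molecules and chromosomes, had a rho of 0.83 and 0.71. The neighbouring genes Col3a1 and Col5a2 had 0.49 and 0.61. Col5a2 and Col5a3 followed the others least, with a median rho to the other 8 genes of 0.42 and 0.41 in untreated cells, against 0.71 for Col1a1.

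The correlations were lower among cells on the mesenchymal side of the marker scores described next. There the median rho was 0.41 in 62 untreated and 0.43 in 56 treated cells, and Col1a1 with Col1a2 (0.84, untreated) and Col6a1 with Col6a2 (0.82, treated) were again the highest pairs. In AG, where most values are 0, the median over 36 pairs in 66 untreated cells was 0.16 and that over 21 pairs in 64 treated cells was 0.14. A single cell was the highest in untreated GHA501A for 6 of the 9 genes (Col3a1, Col5a1, Col5a3 and the 3 type VI genes), with 2.31% of its TPM in the 9 genes. Likewise 1 treated GHA501A cell was the highest for Col1a1, Col1a2, Col6a3 and the 3 type V genes, with 3.04% of its TPM.

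**Figure D4:**
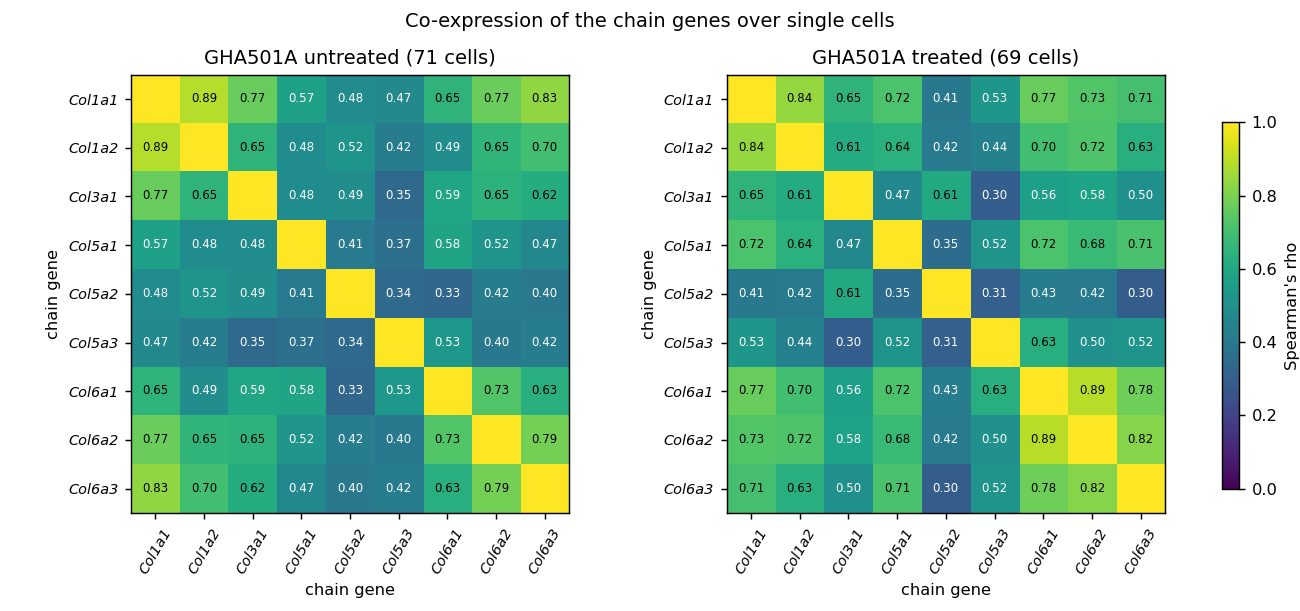
Spearman's rho between each pair of the 9 chain genes (both axes) over 71 untreated and 69 treated GHA501A cells, with the value in each square and colour from 0 to 1. In untreated cells the brightest squares are Col1a1 with Col1a2 (0.89) and Col1a1 with Col6a3 (0.83), in treated cells Col6a1 with Col6a2 (0.89) and Col1a1 with Col1a2 (0.84), and the rows of Col5a2 and Col5a3 are the darkest.

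Cells were next split by whether their mean log2(TPM + 1) over the mesenchymal markers lay above that over the epithelial markers. The collagen genes are in neither list. On the mesenchymal side lay 0 of 66 and 1 of 64 AG cells and 62 of 71 (87.3%, 77.6% to 93.2%) and 56 of 69 (81.2%, 70.4% to 88.6%) GHA501A cells. A score makes a range and not a cell type, and 12 treated GHA501A cells lay within 1 of equal scores, against 1 untreated cell.

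The chain genes followed these sides within GHA501A. Col1a1 had a median of 1324 TPM on the mesenchymal side and 8.40 TPM in the 9 cells on the epithelial side of the untreated set, and of 1050 and 42.9 TPM (13 cells) in the treated set. Col6a1 had medians of 719 and 3.47 TPM in untreated and 926 and 7.99 TPM in treated cells. Averaged over the 9 genes, log2(TPM + 1) was higher on the mesenchymal side by 4.61 in untreated and 3.73 in treated cells. The ranges overlapped for Col1a1: the lowest mesenchymal-side cell had 95.6 TPM in the untreated set and 77.1 TPM in the treated set, while 1 epithelial-side cell had 145 TPM in the untreated set and another 4750 TPM in the treated set. These epithelial-side cells lay within 1 of equal scores. Outside that margin the highest epithelial-side cell had 30.96 TPM in the untreated set, where the ranges then did not overlap. In the treated set it had 430 TPM, against 278 TPM in the lowest mesenchymal-side cell.

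Col1a1 was over 1 TPM in all 9 untreated and all 13 treated cells of that side, which had median Krt14 levels of 1402 and 2032 TPM, against 24 of 66 and 20 of 64 AG cells. In treated cells 12 of these 13 had at most 430 TPM of Col1a1. Low values were also found the other way round. Krt14 was over 1 TPM in 38 of 62 untreated and 50 of 56 treated GHA501A cells on the mesenchymal side, with medians of 1.89 and 6.49 TPM. Whether a value over 1 TPM means the same in both series was not tested. The single AG cell on the mesenchymal side had 318 TPM of Col1a1, 238 TPM of Col6a1, 104.2 TPM of Col5a2, 1689 TPM of Vim and 1140 TPM of Krt14, with Col1a2, Col3a1, Col5a3 and Col6a3 listed at 0.

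**Figure D5:**
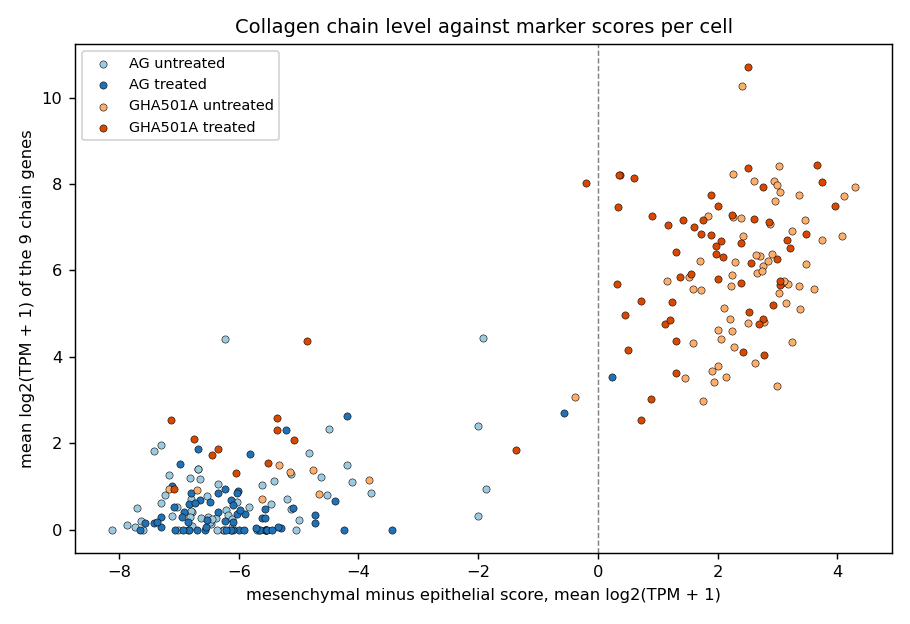
Mean log2(TPM + 1) of the 9 chain genes (y axis) against the mesenchymal minus epithelial score (x axis), 1 point per cell in the 4 sets, with the dashed line at equal scores. Of the GHA501A cells 62 untreated and 56 treated cells lie right of the line, and of the AG cells 1 treated cell does.

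Treated and untreated cells were compared to ask whether neighbours with active beta-catenin altered these genes. No chain gene passed the test. In simulated data with the spread of these sets it recovered none of the planted changes, but the simulation does not give what the real fit could detect. With the series as the replicate block, 0 of the 9 genes were called by limma in either direction, as for 0.00% of all genes tested, and 0 of the 9 had an unadjusted p under 0.05 against 459 of all 12355 genes tested. The median difference was 0.03 over the 9 genes and -0.00089 over all genes. A count of 0 from 2 sets per condition does not show that levels were alike.

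Col5a1 had the largest fitted difference, -1.39 (SE 0.77, adjusted p = 0.998, limma), made up of -2.88 in AG and 0.10 in GHA501A. Col3a1 followed at -1.16 (SE 0.50, adjusted p = 0.998), with -1.96 in AG, where it was detected in 15 of 66 untreated and 1 of 64 treated cells, and -0.36 in GHA501A. Over the alternatives the fitted difference ran from -1.54 to -0.40 for Col5a1 and from -1.57 to -0.062 for Col3a1, both nearest to 0 by the mean of logs. Col1a2 differed by -0.49 (SE 0.51, adjusted p = 0.998), with -1.31 and 0.33. In GHA501A, where the genes were abundant, the treated minus untreated difference of the 9 genes lay between -0.36 for Col3a1 and 0.48 for Col6a2. Col1a1 differed there by 0.36 (1507 and 1936 TPM), although its median was lower in treated cells (1123 and 909 TPM), and Col6a1 differed by 0.09. The differences in the series had opposite signs for 5 of the 9 genes, as for 50.3% of all genes tested.

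The genes that make, process and bind these chains were taken from 7 lists, with 54 of 79 listed genes in the table and 47 tested. By the same limma fit 17 were called higher in GHA501A, 2 lower, and 28 were not called, beside 18.2% of all genes tested called higher and 10.8% called lower. Their median difference was 0.66 on the log2(mean TPM + 1) scale against 0.01 for all genes. In the comparison of treated with untreated cells 0 of the 47 were called, and 0 had an unadjusted p under 0.05.

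Of 15 genes for modification and folding of the chains, 6 were called higher, 0 lower, and 9 were not called. Plod2, a lysyl hydroxylase that prepares collagen for cross-linking, had mean levels of 0.171 and 0.276 TPM in AG and 72.3 and 79.8 TPM in GHA501A, a difference of 5.98 (SE 0.33, adjusted p = 0.00181, limma). P4ha2, a catalytic subunit of prolyl 4-hydroxylase, which stabilises the triple helix, differed by 5.26, from 0.675 and 0.910 TPM in AG to 53.9 and 84.02 TPM in GHA501A. The most abundant genes of the list did not pass on set means, but both were called higher by the mean of log2(TPM + 1) over cells (limma, differences of 1.12 with adjusted p = 0.0205 for Ppib and 0.85 with adjusted p = 0.0268 for P4hb). Ppib, which encodes a prolyl isomerase of the endoplasmic reticulum, had means of 1540 and 1757 TPM in AG and 2444 and 2702 TPM in GHA501A (adjusted p = 0.213), and P4hb, the protein disulphide isomerase subunit of prolyl 4-hydroxylase, had 853 and 882 TPM in AG and 1201 and 1481 TPM in GHA501A (adjusted p = 0.234).

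Of 10 genes for processing and cross-linking, 5 were called higher, 1 lower, and 4 were not called. Adamts2, which removes the amino-terminal propeptide of fibrillar procollagens, was at 0 and 0.0140 TPM in AG and at 18.8 and 25.9 TPM in GHA501A, a difference of 4.52 (2.44 by the mean of logs over cells and 7.70 with a pseudocount of 0.1). Pcolce, an enhancer of carboxy-terminal propeptide removal, differed by 4.06, with 18.3 and 18.6 TPM in AG and 298 and 352 TPM in GHA501A. Lox, the founding lysyl oxidase of collagen cross-linking, differed by 1.92 (adjusted p = 0.0175, limma), from 31.4 and 50.3 TPM to 139.4 and 168.01 TPM. Tgm2, the tissue transglutaminase, was the gene called lower, with 24.4 and 28.8 TPM in AG and 2.26 and 8.76 TPM in GHA501A.

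Among 7 tested proteins that regulate fibrils, 4 were called higher, 0 lower, and 3 were not called. Bgn, which encodes the small proteoglycan biglycan, differed by 5.08, from 3.32 and 10.5 TPM in AG to 214 and 263 TPM in GHA501A. Dcn differed by 4.62 (1.30 by the mean of logs), from 0.649 and 0.0131 TPM to 27.3 and 34.8 TPM, and is also a marker in the mesenchymal score. Sparc, a collagen-binding matrix protein, was high in both series, with 700 and 820 TPM in AG and 1174 and 1384 TPM in GHA501A (adjusted p = 0.160). By the mean of logs over cells it was called higher (1.13, adjusted p = 0.0131, limma). Of 8 receptors, 2 were called higher and 6 were not called, a share near the 18.2% of all genes tested. These were Mrc2, an endocytic receptor for collagen, which differed by 4.06 (2.59 by the mean of logs), and Ddr2, a tyrosine kinase receptor for fibrillar collagen, which differed by 1.69 (adjusted p = 0.0305, and 0.0599 with a pseudocount of 0.1). Itgb1, the β subunit of collagen-binding integrins, had means of 356 and 220 TPM in AG and 137.8 and 170.9 TPM in GHA501A (adjusted p = 0.182), and was called lower by the mean of logs (-0.97, adjusted p = 0.0415, limma).

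The other fibrillar and fibril-associated collagens that could be tested were scarce. These were 3 of 5 listed fibrillar and 4 of 10 listed fibril-associated genes, and the levels of the rest are not described. Of 3 other fibrillar genes tested, 0 were called. Col27a1, with the largest difference among them, had means of 0.0827 and 0.118 TPM in AG and 1.06 and 3.64 TPM in GHA501A (adjusted p = 0.0615), and Col24a1 had between 1.41 and 2.35 TPM in the 4 sets. Of 4 fibril-associated genes tested 1 was called lower, Col9a3, at 4.14 and 2.39 TPM in AG and 1.28 and 0.134 TPM in GHA501A (adjusted p = 0.0439), a call that was lost with a pseudocount of 0.1 (adjusted p = 0.0599). Col20a1 was at 1.69 and 1.16 TPM in AG and listed at 0 in all GHA501A cells. Col16a1 had means of 0.563 and 0.431 TPM in AG and 2.92 and 2.15 TPM in GHA501A (adjusted p = 0.0536). With the pseudocount of 0.1 calls were gained for Col16a1 (adjusted p = 0.0307), Col27a1 (adjusted p = 0.0235) and Col20a1 (adjusted p = 0.00896) by limma. By the mean of logs Col16a1, Col27a1, Col20a1 and Col9a3 were not called. The 1 further type VI gene of the table did not pass the filter on low values.

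Genes whose pattern over cells was most like that of the chains were ranked by Spearman's rho to the mean log2(TPM + 1) of the 9 genes over the 71 untreated GHA501A cells. Among 6274 genes detected in at least 50% of these cells the median rho was -0.02, and the middle 90% lay between -0.30 and 0.30. The highest was Nrep (0.64, and 0.56 in 69 treated cells), followed by Abhd2 (0.62 and 0.39), S100a4 (0.59 and 0.52), Mrc2 (0.58 and 0.54), Cald1 (0.57 and 0.30) and Ddr2 (0.57 and 0.47). Fzd1 (0.56 and 0.43), Akap9 (0.56 and 0.40), Cyp1b1 (0.55 and 0.61) and Prrx1 (0.55 and 0.52) completed the highest 10. Mrc2 and Ddr2 are the same collagen receptors that were called between the series, and S100a4 and Prrx1 belong to the mesenchymal score. At the other end lay Idh3a (-0.66 and -0.32), Rplp0 (-0.63 and -0.39), Atp6v1f (-0.59 and -0.18), Srp72 (-0.56 and 0.02) and Pdlim1 (-0.54 and -0.29). Over the mesenchymal side alone the rho of the highest 10 in untreated cells lay between 0.38 for Cyp1b1 and 0.53 for Nrep. In treated cells of that side it was lowest for Cald1 (0.21), Ddr2 (0.24) and S100a4 (0.27), inside the range of the middle 90% of candidate genes over all treated cells, -0.26 to 0.30.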

How the data were processed

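Single cells were captured on the Fluidigm C1, and capture sites with doublets or dead cells had been left out by imaging. Per the methods and labels, the authors trimmed reads with cutadapt, aligned them by TopHat to GRCm38, dropped reads that mapped to several places and counted with featureCounts. Versions, annotation and gene lengths are not given in the sources used here. The deposited values are TPM per gene and cell, which sum to 1000000 in each cell, so the reads behind each value, and the precision of low values, cannot be read from them. Of 294 columns, 278 matched a label and 16 were not used. For 8 AG cells the name prefix was that of the other treatment (5 with a treated and 3 with an untreated label), and these entered alternatives only.

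From the TPM, means over the cells of each set were put on the log2(mean TPM + 1) scale. The 12355 genes above 1 TPM in at least 6 cells were compared by limma 3.58.1 (R 4.3.3, two-sided, Benjamini-Hochberg adjustment) with series and treatment in the model. Nothing says that the sets came from separate animals. With both terms in the model, the spread behind the p-values is how far the series difference changed between treatments, moderated over genes by limma. That spread may be technical. No series was repeated, so the p-values do not measure spread between independent series. The series was the replicate block for treatment, since the labels put the sets of a series together. The fit was tested on simulated data with the spread of the real sets, in which 200 of 12355 genes were changed. Planted changes were not recovered between treatments. Between series 0% were recovered at log2 changes of 2 and 4, and 48.5% at 6. The real fit called smaller series differences, such as 1.69 for Ddr2, so the simulation does not give what the real fit could detect. Other values used Python 3.11.15, pandas 2.3.3, numpy 2.4.6 and scipy 1.17.1, and figures matplotlib 3.10.9.

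The 9 genes and the lists were chosen with earlier results of these data known. Named were the 9 genes, in each list those with the largest difference and the highest level, and the 10 genes most and 5 least like the chains. Tgm2 was named after its values were seen.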

Additional observations from a re-analysis of the deposited data

Results flagged for a closer look

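For 5 of the 9 chain genes the treated minus untreated difference had opposite signs in the series, as for 50.3% of all genes tested. Each series has 1 treated and 1 untreated set, so the difference between the series was not tested. On the log2(mean TPM + 1) scale Col5a1 differed by -2.88 in AG and 0.10 in GHA501A, Col1a2 by -1.31 and 0.33, and Col6a1 by -0.033 and 0.087. The set mean of Col5a3 differed by -2.48 TPM in AG, where the treated set is listed at 0, and by 8.83 TPM in GHA501A. That of Col6a3 differed by -0.0362 TPM and 14.5 TPM. The AG value of Col5a1 rests in part on 1 untreated cell at 1163 TPM.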

How the results depend on the processing

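Between the series, all 9 chain genes kept a positive difference under every alternative. The number called was 9 with the mean of log2(TPM + 1) over cells, with genes detected in at least 10% of cells, with median-of-ratios size factors and without the highest cell of each set (Col5a1 was then called), and 8 under the other alternatives that use all 4 sets. The median difference was 6.5 with a pseudocount of 0.1. Genes called lower numbered 2889 by the mean of logs. List genes called lower numbered 4 by the mean of logs, 0 with no filter, 1 with the 8 cells placed by name prefix and 4 without the highest cells. Leaving out 1 set gave a median difference of 5.10 to 6.01 with the treatment block, where no residual spread was left for a test, and 5.08 to 5.97 without it. Without the block and 1 set, 6 to 9 chain genes, 798 to 1700 genes higher, 225 to 644 genes lower, and 8 to 12 list genes higher and 0 to 1 lower were called. With either GHA501A set left out, 6 chain genes were called, Col3a1, Col5a1 and Col5a3 not being among them, and Col24a1 differed by -0.021 without the treated GHA501A set and by 0.45 without the untreated one.

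For treatment, the fit with no replicate block called 0 of the 9 genes and 0 of all genes, as the paired fit did, with 53 genes in place of 459 at an unadjusted p under 0.05. The deviations of the paired sets from their treatment means had r = 0.863 across genes. The fitted difference changed sign for Col1a1 (-0.024) and Col5a3 (0.14) by the mean of logs and for Col6a3 (-0.032) with a pseudocount of 0.1. With 1 set left out, the fitted difference was that of the other series alone, and the median of the 9 genes was -0.051 to 0.22. Without an AG set the sign changed for Col1a2 (0.33), Col5a1 (0.10) and Col5a3 (0.22). Without a GHA501A set it changed for Col6a1 (-0.033) and Col6a3 (-0.051). The median share of cells with a chain gene was 7.58% and 3.13% in AG and 67.6% and 75.4% in GHA501A at TPM over 10, and 97.2% and 98.6% in GHA501A at TPM over 0. By the ratio of set means the log2 ratios were 3.33 (Col1a1/Col1a2), -3.05 (Col3a1/Col1a1), 0.48 (Col5a1/Col5a2, of opposite sign to -0.37 over cells), -4.24 (Col6a3/Col6a1) and -4.59 (Col5a1/Col1a1). With both chains over 10 TPM they were 3.21 (Col1a1/Col1a2), -0.040 (Col5a3/Col5a1), -4.10 (Col6a3/Col6a1) and -5.08 (Col5a1/Col1a1). By longest transcripts they were 2.29 (Col1a1/Col1a2), -2.71 (Col3a1/Col1a1), -0.89 (Col5a1/Col5a2), 2.30 (Col6a1/Col6a2), -4.23 (Col6a3/Col6a1) and -5.71 (Col5a1/Col1a1). On the mesenchymal side the median rho was 0.41 and 0.43, and a margin of 1 between the scores left 0 treated AG and 45 treated GHA501A cells on that side. The fits without the highest cells or on genes above 0 in both series, the longest transcripts and leaving out sets without the block were chosen after seeing the data. The causes were not tested.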

Other observations

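The 8 AG cells with a name prefix of the other treatment held few chain transcripts. The 5 cells with a name of the untreated kind and a treated label had summed TPM of the 9 genes between 0 and 43.8 (median 13.1), and the 3 cells with a name of the treated kind and an untreated label between 0 and 19.5 (median 0). At most 2 of the 9 genes were over 1 TPM in any of them. The median was 11 TPM in the untreated and 3.81 TPM in the treated AG set.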
